A study of Mus musculus with 12 samples.

Results

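The trophectoderm (TE) is the outer epithelium of the mouse blastocyst, and 10 of its marker genes were taken by symbol, for their known roles, from the 34245 genes of the deposited expression table. They comprised 7 transcription factors (Cdx2, Gata2, Gata3, Eomes, Elf5, Tfap2c and Hand1) and 3 keratins (Krt7, Krt8 and Krt18). These genes and the companion lists were chosen with earlier results of these data known. Their counts and medians beside those of all genes are therefore a description. The study asked what p38-MAPK activity does while the early blastocyst matures, and measured poly(A) RNA by sequencing. Embryos of F1 hybrid (C57Bl6 x CBA/W) mice were recovered at the 2-cell stage and grown in KSOM medium with amino acids to E3.5. They were then kept for 4, 7 or 10 h either in the solvent DMSO (control) or in 20 µM SB220025, a chemical inhibitor of p38-MAPK dissolved in DMSO (p38-MAPKi). Each of the 6 groups had 2 libraries, and each library came from a pool of 30 whole embryos, so that RNA of TE, epiblast and primitive endoderm (PrE) was mixed in every library. Levels are given as RPKM, read counts scaled to transcript length and library depth, so that genes can be set side by side. No RNA standard was added to the libraries, so each level is a share of the library's RNA. Depth ran from 11242314 reads in p38-MAPKi replicate 1 at E3.5 + 7 h to 24457312 in p38-MAPKi replicate 2 at E3.5 + 10 h.

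In the outer cells of the embryo, YAP and its partner TEAD4 switch on Cdx2 and Gata3, and these factors establish TE fate while the inner cells keep pluripotency factors. Eomes, Elf5 and Tfap2c act with Cdx2 in trophoblast stem cells, Gata2 works beside Gata3 in trophoblast, and Hand1 drives the later formation of trophoblast giant cells. Krt8 and Krt18 proteins pair into the filaments of simple epithelia, of which the TE is the earliest in development, and Krt7 is a further simple-epithelial keratin.

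All 10 genes had at least 1 read in each of the 12 libraries, and 9 reached 1 RPKM in at least 2 libraries. The keratins stood at the top. Krt18 had a mean level of 1169 RPKM over the 12 libraries (909 to 1399) and ranked number 9 among the 10720 genes that reached 1 RPKM in 6 libraries or more, and Krt8 had a mean of 605 RPKM (474 to 754) and ranked number 29. Next in level came Cdx2 at 185 RPKM (144 to 237), Gata3 at 88.4 RPKM (57.2 to 115), Tfap2c at 46.7 RPKM (38.7 to 54.3) and Eomes at 26.7 RPKM (19.0 to 37.0). The lower members were Gata2 at 8.85 RPKM (5.45 to 13.9), Krt7 at 7.99 RPKM (6.24 to 9.43), Hand1 at 2.27 RPKM (0.901 to 4.77) and Elf5 at 0.422 RPKM (0.124 to 0.826). Each gene in this order was above the next in 12 of 12 libraries, with 1 exception: Gata2 was above Krt7 in 7 of 12, so the levels of these neighbours overlapped. The length behind the RPKM exceeded the longest annotated transcript for Krt7 (7055 against 4094 bases) and Gata2 (5398 against 3571 bases), and also for Elf5, Gata3, Eomes, Tfap2c and Hand1, so the order depends on those lengths.

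**Figure D1:**
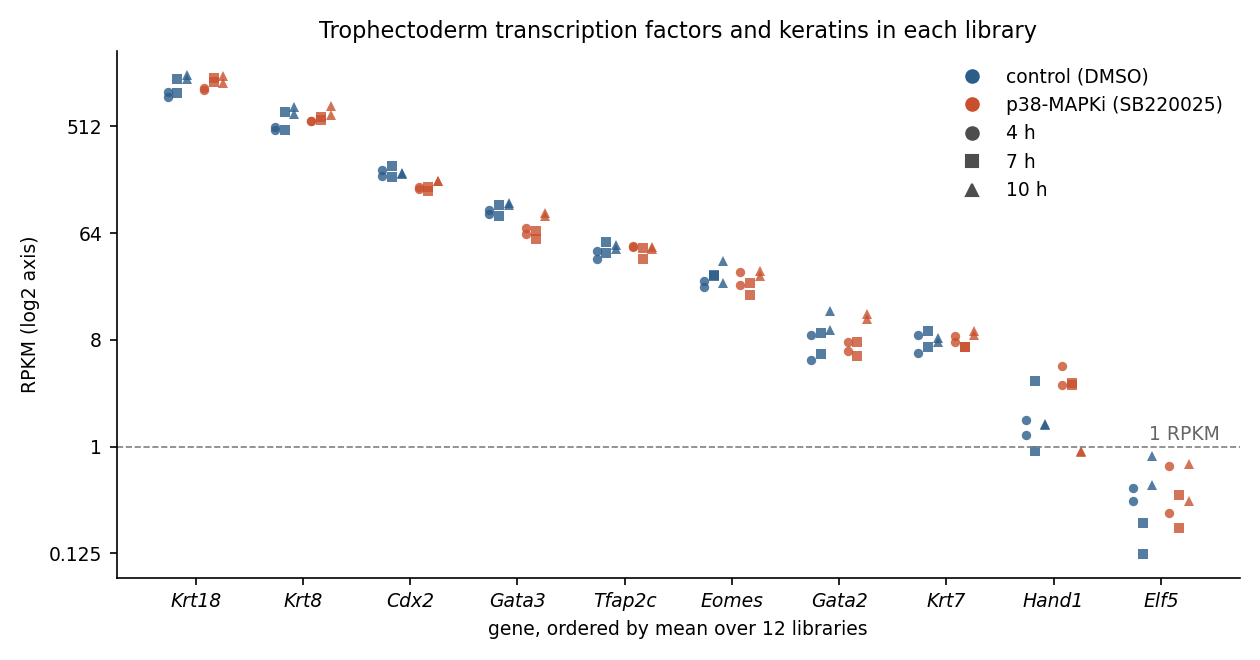
Level of each gene in each of the 12 libraries in RPKM on a log2 axis, with genes ordered by mean, control libraries in blue and p38-MAPKi libraries in orange, and time points as symbols. Krt18 lay between 909 and 1399 RPKM, and Elf5 stayed under the dashed line at 1 RPKM in every library.

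The labelled tissue was checked against markers of the 3 cell types of the blastocyst and of an epithelium that it does not have. The epiblast markers Pou5f1 (mean 427 RPKM) and Nanog (118 RPKM) and the PrE marker Gata6 (103 RPKM) each stood above Gata3 in mean level. TE genes were thus read against a background of inner cells in all libraries. The paper describes early inner cells that hold GATA6 together with NANOG, so Gata6 does not mark PrE alone. The other epiblast and PrE markers were below Gata3. Among those of PrE, Dab2 had a mean of 46.5 RPKM, Pdgfra 7.69 RPKM, Sox17 2.49 RPKM and Gata4 1.86 RPKM. Sox7 and Foxa2 stayed under 1 RPKM. Of 11 keratins of stratified epithelia such as skin, 10 stayed under 1 RPKM in every library. Krt5 had at most 1 read and Krt14 at most 19 reads in any library, and Krt6a had none. Krt10 was the exception, with a mean of 2.52 RPKM (1.36 to 5.13), and Krt1 followed at 0.242 RPKM.

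Cdx2 and Gata3 moved together across libraries, as did Krt8 and Krt18, and the 250 bases upstream of the RefSeq start of these 4 genes are shown for that reason. Promoter sequences of RefSeq (GRCm38.p6) were found for 8 of the 10 genes, with 10 promoters in all. Capitals mark matches, on either strand, to GCCNNNGGC, a motif of the AP-2 family to which Tfap2c belongs, or to the GATA motif AGATAA. The TEAD motif GGAATG was also searched and was not present in these 4 windows.
Cdx2: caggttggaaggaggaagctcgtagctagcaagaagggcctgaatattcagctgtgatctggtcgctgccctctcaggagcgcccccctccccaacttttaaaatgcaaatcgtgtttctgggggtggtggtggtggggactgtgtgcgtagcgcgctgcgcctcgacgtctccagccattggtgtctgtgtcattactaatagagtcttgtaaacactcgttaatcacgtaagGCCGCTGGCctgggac
Gata3: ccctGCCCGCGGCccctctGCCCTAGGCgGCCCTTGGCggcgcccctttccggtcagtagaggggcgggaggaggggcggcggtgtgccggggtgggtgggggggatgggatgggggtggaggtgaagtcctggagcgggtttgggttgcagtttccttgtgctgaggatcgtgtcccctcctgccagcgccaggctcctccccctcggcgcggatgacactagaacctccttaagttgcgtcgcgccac
Krt8: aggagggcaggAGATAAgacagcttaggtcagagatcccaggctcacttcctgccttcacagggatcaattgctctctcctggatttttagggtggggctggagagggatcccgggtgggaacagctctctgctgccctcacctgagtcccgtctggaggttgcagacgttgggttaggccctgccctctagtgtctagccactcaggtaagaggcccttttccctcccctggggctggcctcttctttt
Krt18: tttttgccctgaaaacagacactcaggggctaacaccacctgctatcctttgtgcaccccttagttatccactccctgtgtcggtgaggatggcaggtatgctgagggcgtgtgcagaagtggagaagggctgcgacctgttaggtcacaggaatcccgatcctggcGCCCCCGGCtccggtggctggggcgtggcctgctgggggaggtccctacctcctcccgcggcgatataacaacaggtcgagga
The Cdx2 sequence lies on the minus strand at chr5:147307250-147307499, and its last bases, with the AP-2 match, fall inside the annotated Cdx2 gene, which reaches to base 147307270 in GENCODE. That of Gata3 lies on the minus strand at chr2:9878601-9878850, inside the annotated Gata3 gene, whose outermost start lies further upstream. The Krt8 sequence (minus strand, chr15:102004343-102004592) and the Krt18 sequence (plus strand, chr15:102027966-102028215) belong to genes that lie close together on chromosome 15. The AP-2 motif was matched in 5 of the 10 promoters of these genes, those of Cdx2, Gata2, Gata3 (3 matches), Krt7 and Krt18, and in 13.7% of 32851 promoters of the same length. The GATA motif was matched for Krt8 alone among these genes and in 9.99% of all promoters, and the TEAD motif in 1 promoter each of Elf5 and Gata2 and in 12.6% of all promoters. A match shows that the letters are present and nothing about binding.

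Cdx2 encodes a homeodomain factor needed to keep TE identity. At E3.5 + 4 h its level was 195 and 219 RPKM in the control libraries and 151 and 158 RPKM with p38-MAPKi. At E3.5 + 7 h it was 237 and 190.4 RPKM in control and 158 and 144 RPKM with p38-MAPKi, and at E3.5 + 10 h it was 204 and 208 RPKM in control and 177 and 176 RPKM with p38-MAPKi. Both p38-MAPKi libraries lay below both control libraries at each of the 3 time points, and the distance was smallest at 10 h. The mean was 207 ± 16.5 RPKM (SD, n = 2) in control and 155 ± 5.47 RPKM with p38-MAPKi at 4 h, a log2 fold change of -0.42. At 7 h the log2 fold change was -0.49 and at 10 h it was -0.22.

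Gata3 encodes a zinc-finger factor that acts beside Cdx2 in the TE. At E3.5 + 4 h its level was 92.1 and 101 RPKM in control and 62.5 and 70.7 RPKM with p38-MAPKi. At E3.5 + 7 h it was 109.8 and 90.1 RPKM in control and 67.2 and 57.2 RPKM with p38-MAPKi, and at E3.5 + 10 h it was 111 and 115 RPKM in control and 94.7 and 89.4 RPKM with p38-MAPKi. The p38-MAPKi libraries of Gata3 were again below both controls at every time point, with the lowest single value at 7 h. The log2 fold change was -0.54 at 4 h, -0.68 at 7 h and -0.30 at 10 h. A gene whose p38-MAPKi libraries were all below the controls at all 3 time points was not rare: 449 of the 10466 genes tested at every time point had this pattern (4.29%), and 378 had the opposite one (3.61%).

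In the test of each time point on its own 4 libraries (limma with Benjamini-Hochberg adjustment over all genes tested, threshold 0.05), neither gene passed. The adjusted p of Cdx2 was 0.490 at 4 h, 0.127 at 7 h and 0.110 at 10 h, and that of Gata3 was 0.227, 0.0652 and 0.0871. At 7 h the adjusted p of Gata3 ran from 0.0101 to 0.172 over the alternatives of processing and passed in 4 of 9, and that of Cdx2 ran from 0.0221 to 0.356 and passed in 3 of 9. When limma estimated 1 p38-MAPKi effect over all 12 libraries with time as a factor, both genes fell: Gata3 by 0.51 on the log2 scale (SE 0.0902, adjusted p 0.0169) and Cdx2 by 0.38 (SE 0.0831, adjusted p 0.0336), each lower in 6 of 6 p38-MAPKi libraries than in every control of the same time. These were 2 of the 9 members tested, beside 2.67% of the 11590 genes tested. The Gata3 call was kept when any 1 library was left out, whereas Cdx2 kept its call in 5 of 12 such fits, with adjusted p from 0.0413 to 0.0939. Cdx2 lost it without either control library at 4 h, without p38-MAPKi replicate 2 at 4, 7 or 10 h, without control replicate 1 at 7 h and without control replicate 2 at 10 h. Over the alternatives of processing the limma adjusted p of Gata3 ran from 0.00807 to 0.0969, and it passed in 7 of 9. That of Cdx2 ran from 0.0118 to 0.174, and it passed in 4 of 9. Without the 7 h time point, an alternative chosen after seeing the data, neither passed. The difference of the p38-MAPKi effect between 10 h and 7 h was 0.38 for Gata3 (limma, adjusted p 0.222) and 0.27 for Cdx2 (adjusted p 0.347), so the smaller distance at 10 h did not pass a test of its own. These p-values measure the spread between these pooled samples. In whole blastocysts, fewer TE cells and less of the RNA per TE cell cannot be told apart.

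**Figure D2:**
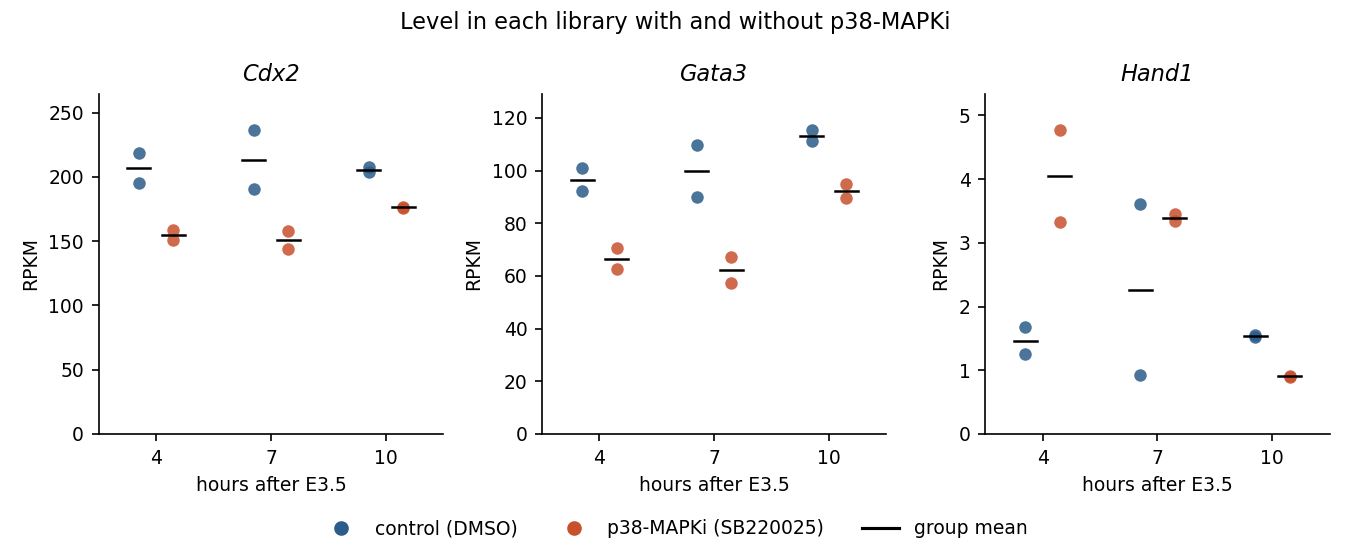
RPKM of Cdx2, Gata3 and Hand1 in each library by hours after E3.5, with control libraries in blue, p38-MAPKi libraries in orange and the mean of each group of 2 as a bar. Cdx2 and Gata3 were lower in both p38-MAPKi libraries at every time point, while Hand1 was higher at 4 h (3.33 and 4.77 against 1.26 and 1.67 RPKM) and lower at 10 h.

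Cdx2 was at 1.80 to 2.52 times the RPKM of Gata3 in all libraries, and the ratio was higher in both p38-MAPKi libraries than in both controls at each time: 2.41 and 2.24 against 2.12 and 2.17 at 4 h, 2.35 and 2.52 against 2.15 and 2.11 at 7 h, and 1.87 and 1.97 against 1.83 and 1.80 at 10 h. The difference between the 2 genes was not tested and depended on the scaling: with the trend in transcript length removed, the log2 fold changes at 7 h were -0.56 for Cdx2 and -0.54 for Gata3, and over the 12 libraries -0.45 and -0.48. Together they made up 70.2% to 80.9% of the summed RPKM of the 7 transcription factors. That sum followed them: it was 356 and 401 RPKM in control and 304 and 314 RPKM with p38-MAPKi at 4 h, 428 and 373 against 294 and 283 RPKM at 7 h, and 397 and 427 against 363 and 357 RPKM at 10 h. The p38-MAPKi sum was below both controls at each time point.

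Hand1, a basic helix-loop-helix factor of later trophoblast, was among the rarest of these RNAs, with 39 to 206 reads per library. At E3.5 + 4 h its level was 1.26 and 1.67 RPKM in control and 3.33 and 4.77 RPKM with p38-MAPKi. At E3.5 + 7 h it was 0.925 and 3.60 RPKM in control and 3.34 and 3.45 RPKM with p38-MAPKi, and at E3.5 + 10 h it was 1.53 and 1.55 RPKM in control and 0.910 and 0.901 RPKM with p38-MAPKi. The p38-MAPKi libraries were thus above the controls at 4 h and below them at 10 h, and at 7 h they lay between control libraries that differed widely from each other. Counting error did not span that distance: the exact 95% Poisson intervals of the control libraries at 7 h were 0.658 to 1.26 RPKM for 39 reads and 3.08 to 4.19 RPKM for 168 reads, and such intervals cover counting error only.

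Hand1 rose at 4 h by a log2 fold change of 1.46 (SE 0.333, limma adjusted p 0.00360), higher in 2 of 2 p38-MAPKi libraries, and it was the only 1 of the 9 tested members to pass at that time, beside 0.909% of 10781 genes. In that fit limma gave every gene the spread typical of its level, so the spread of Hand1 itself did not enter its p. The call was lost without control replicate 1 or without p38-MAPKi replicate 2 (adjusted p from 0.000656 to 0.564 over the 4 libraries left out in turn), and it was kept in 2 of the 8 alternatives of processing in which Hand1 was tested (adjusted p from 0.00303 to 0.299). The log2 fold change was 0.89 at 7 h (SE 0.555, adjusted p 0.311), and -0.09 there without control replicate 1. At 10 h it was -0.76 (SE 0.254, adjusted p 0.172). Hand1 entered that 10 h test only through its control libraries, since both p38-MAPKi libraries were under 1 RPKM. The p38-MAPKi effect on Hand1 at 10 h differed from that at 4 h by -2.22 (SE 0.395), a comparison chosen after seeing the data, with an unadjusted p of 0.000177 and a limma adjusted p of 0.413, which did not pass (0.194 to 0.406 over the alternatives of processing). With any 1 library left out its adjusted p ran from 0.0358 to 0.8001, and it passed in 1 of 8 such fits, that without p38-MAPKi replicate 1 at 4 h.

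No call was made for the other transcription factors that limma tested (Eomes, Tfap2c and Gata2). Eomes, a T-box factor of trophoblast stem cells, ran from 19.0 to 37.0 RPKM, with log2 fold changes of 0.16, -0.39 and -0.04 at 4, 7 and 10 h. At 7 h both p38-MAPKi libraries (19.0 and 24.1 RPKM) were below both controls (27.7 and 28.3 RPKM), and at the other times the groups overlapped. Tfap2c, an AP-2 factor that acts early in the TE programme, was the steadiest of the 10 genes, its highest library being 1.40 times its lowest, and its log2 fold changes were 0.25, -0.18 and -0.02. Its p38-MAPKi libraries at 4 h (49.1 and 50.1 RPKM) were above the controls (38.9 and 44.8 RPKM), and the groups overlapped afterwards. Gata2, which shares trophoblast targets with Gata3, showed log2 fold changes of 0.03, -0.14 and 0.12 with overlapping groups at all 3 times. Elf5, an ETS factor of trophoblast stem cells, had 17 to 113 reads per library and stayed under 1 RPKM throughout, so it was not tested. Its mean was lowest at 7 h, at 0.175 ± 0.0720 RPKM (SD, n = 2) in control and 0.299 ± 0.133 RPKM with p38-MAPKi, and highest in control at 10 h, at 0.650 ± 0.249 RPKM.

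Krt8 and Krt18 encode the filament partners of the TE. Krt18 was at 909 and 989 RPKM in control and 1048 and 1079 RPKM with p38-MAPKi at E3.5 + 4 h, at 1294 and 972 against 1306 and 1204 RPKM at 7 h, and at 1286 and 1399 against 1184 and 1361 RPKM at 10 h. Krt8 was at 477 and 509 RPKM in control and 571 and 572 RPKM with p38-MAPKi at 4 h, at 676 and 474 against 616 and 584 RPKM at 7 h, and at 647 and 743 against 639 and 754 RPKM at 10 h. For both genes the p38-MAPKi libraries were above the controls at 4 h only, and at 7 h they lay inside or just beyond a wide gap between the control libraries. Krt18 had log2 fold changes of 0.16, 0.16 and -0.08 at the 3 times, and Krt8 of 0.21, 0.08 and 0.00. None passed in limma (adjusted p from 0.645 to 0.993), and the sign of these small values depended on the scaling: at 4 and 7 h they were -0.07 and -0.24 for Krt18 and -0.03 and -0.34 for Krt8 under quantile normalization. With the trend in transcript length removed they were -0.04 and -0.08 for Krt18 and 0.02 and -0.07 for Krt8. Over the 12 libraries as a whole the p38-MAPKi effect was 0.08 for Krt18 (SE 0.1001) and 0.10 for Krt8 (SE 0.101), and it too was negative under quantile normalization (-0.11 and -0.13).

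The proportion of the filament partners was steadier than their levels, since Krt8 was at 0.472 to 0.554 times the RPKM of Krt18 in all 12 libraries. Their reads together made up 0.213% to 0.330% of each library. Krt7, the minor member, ran from 6.24 to 9.43 RPKM, and its log2 fold changes were 0.14, -0.22 and 0.18. At 10 h its p38-MAPKi libraries (9.43 and 8.75 RPKM) were above the controls (8.29 and 7.71 RPKM), with a limma adjusted p of 0.344.

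**Figure D3:**
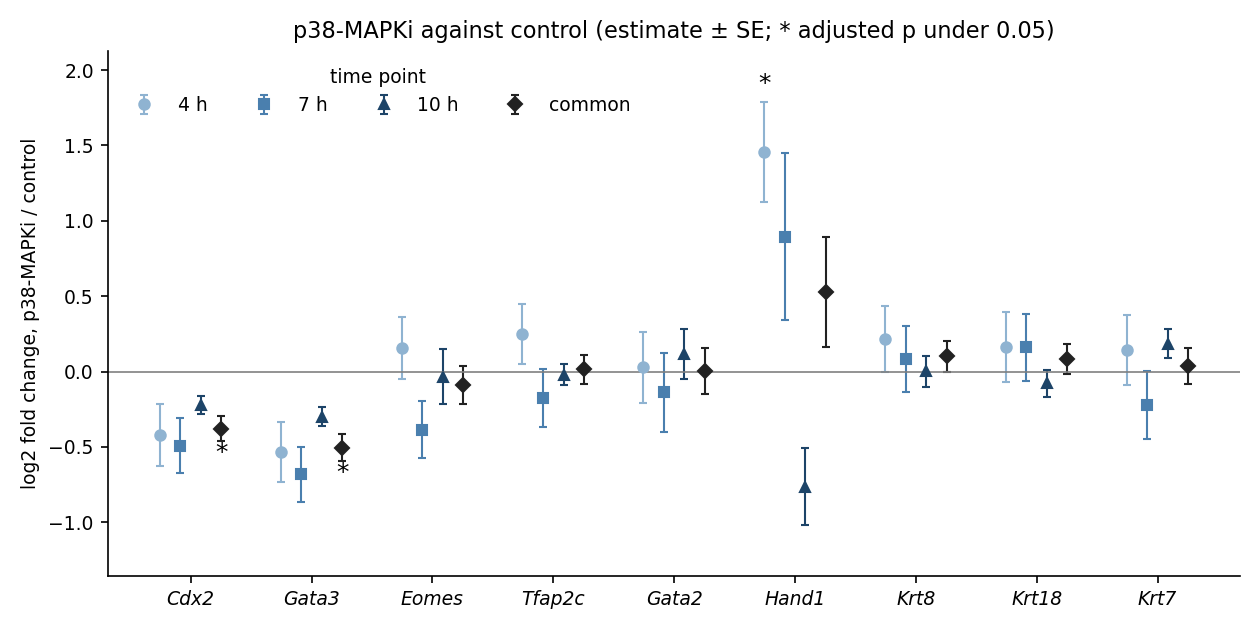
Log2 fold change of p38-MAPKi against control with its SE for the 9 members tested, at 4, 7 and 10 h and for the effect common to the time points, with asterisks at a limma adjusted p under 0.05. Asterisks stand at Hand1 at 4 h and at Cdx2 and Gata3 for the common effect.

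Counted over the 9 members tested, 2 were lower and 4 higher in both p38-MAPKi libraries at 4 h, where 13.7% and 26.8% of all genes tested were so. At 7 h the counts were 3 lower and 0 higher, beside 38.7% and 23.0%, and at 10 h they were 3 lower and 1 higher, beside 29.6% and 22.6%. The lower members at 10 h were Cdx2, Gata3 and Hand1, and Hand1 reached 1 RPKM there in its control libraries only. The limma test called 1 member at 4 h, with 3 members at an unadjusted p under 0.05 beside 9.42% of all genes. It called 0 members at 7 h, beside 2.13% of 10940 genes, with 2 members at an unadjusted p under 0.05 beside 28.4% of all genes. It called 0 at 10 h, beside 0.803% of 10959 genes, with the same 3 members at an unadjusted p under 0.05 beside 19.8% of all genes. At 7 h the median of all genes was itself displaced, with a log2 fold change of -0.14, which median centring moved to 0.05. Relative to it the members were close to the rest (median -0.18), as they were at 4 h (0.16 beside 0.07) and at 10 h (-0.04 beside -0.02). After median centring the 7 h values were -0.49 for Gata3 and -0.30 for Cdx2.

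Whether the p38-MAPKi effect itself differed between time points was tested for each member. Limma called 0 members for 7 h against 4 h (0.00884% of 11311 genes, 0 members at an unadjusted p under 0.05 beside 6.83% of all genes), 0 for 10 h against 7 h (0.00877% of 11400 genes, 0 members at an unadjusted p under 0.05 beside 26.3% of all genes) and 0 for 10 h against 4 h (0.0% of 11288 genes, Hand1 alone at an unadjusted p under 0.05 beside 9.86% of all genes). The median of all genes was -0.22 for 7 h against 4 h and 0.15 for 10 h against 7 h, and median centring moved these to 0.00 and -0.05. The Hand1 effect at 10 h differed from that at 7 h by -1.66 (SE 0.762, adjusted p 0.208).

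Over time in control embryos, Gata2, Krt18 and Krt8 had the largest log2 changes from 4 to 10 h among the 9 members tested, while Krt7 had 0.11 with overlapping libraries. Krt18 went from a mean of 949 ± 57.1 RPKM (SD, n = 2) at 4 h to 1342 ± 79.8 RPKM at 10 h, a log2 fold change of 0.50 (SE 0.0995, limma adjusted p 0.0616). Krt8 went from 493 ± 22.8 to 695 ± 67.7 RPKM, a log2 fold change of 0.49 (SE 0.104, adjusted p 0.0687). Gata2 was at 5.45 and 8.86 RPKM at 4 h, at 9.12 and 6.02 RPKM at 7 h and at 9.72 and 13.9 RPKM at 10 h, with a log2 fold change of 0.74 from 4 to 10 h (SE 0.228, adjusted p 0.184). At 7 h these 3 genes lay between the lowest library at 4 h and the highest at 10 h, except Krt8 in control replicate 2. Its level there (474 RPKM) was below both libraries at 4 h (477 and 509 RPKM). For all 3 genes both libraries at 10 h were above both at 4 h. The same order held for Gata3 (0.23) and Tfap2c (0.21), which made 5 of the 9 members tested, beside 42.3% of all genes that were higher and 8.06% that were lower. The median of all genes was 0.14 in this comparison and 0.00 after median centring, under which Krt18 was at 0.36 and Krt8 at 0.36. Cdx2 had means of 207, 213 and 206 RPKM at the 3 times and a log2 change of -0.01 from 4 to 10 h (SE 0.102), or -0.14 after median centring.

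Limma called 0 members between 10 and 4 h in control, beside 0.471% of 10825 genes, with 4 members (Gata2, Gata3, Krt8 and Krt18) at an unadjusted p under 0.05, beside 15.2% of all genes. Krt18 and Krt8 stood near the threshold and on both sides of it: over the alternatives of processing the adjusted p of Krt18 ran from 0.00142 to 0.598 and that of Krt8 from 0.00132 to 0.606. For Gata2 it ran from 0.000141 to 0.624, and Gata2 passed in 1 of 8 alternatives, the replicate block, under which Krt18 and Krt8 passed as well. Without control replicate 2 at 4 h, Gata2, Krt8 and Krt18 passed (0.0210 for Krt18 and 0.0259 for Krt8), and without control replicate 1 at 10 h, Gata2 passed. Between 7 and 4 h limma called 0 members, beside 0.492% of 10776 genes, with 0 members at an unadjusted p under 0.05 beside 4.79% of all genes. Between 10 and 7 h it called 0, beside 0.0552% of 10873 genes, with 1 member, Gata2, at an unadjusted p under 0.05 beside 3.79% of all genes. That last comparison depended on 1 library, since without control replicate 1 at 7 h Krt8 (adjusted p 0.0315), Krt18 (0.0366) and Hand1 (0.0474) passed. In that library Krt8 and Krt18 were higher, and Hand1 lower, than in the other control library at 7 h.

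**Figure D4:**
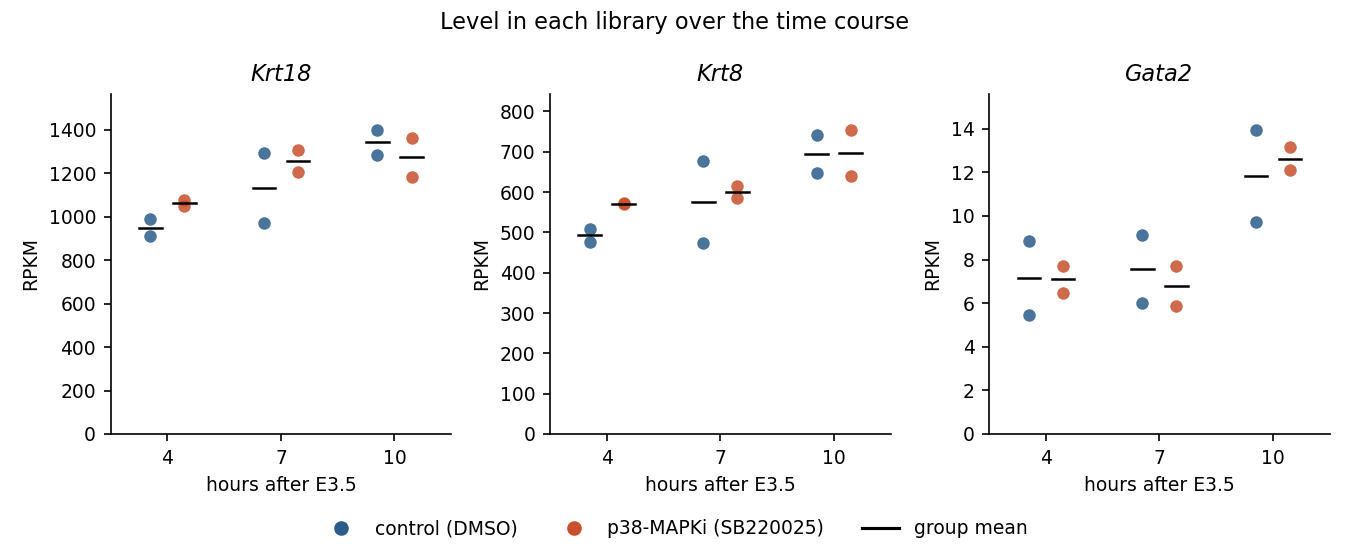
RPKM of Krt18, Krt8 and Gata2 in each library by hours after E3.5, with control libraries in blue, p38-MAPKi libraries in orange and the group mean as a bar. In control both libraries at 10 h were above both at 4 h for each gene, and at 7 h the control libraries were far apart (1294 and 972 RPKM for Krt18).

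The members were also compared with each other and with all 10719 other genes at 1 RPKM or more in at least 6 libraries, by Pearson correlation of log2 levels over the 12 libraries, as a description. Krt8 and Krt18 had r = 0.946 and Cdx2 and Gata3 had r = 0.929. Between Cdx2 and Krt8 r was 0.07 and between Gata3 and Krt18 it was 0.18, whereas Gata2 had r = 0.795 with Krt8 and 0.678 with Krt18. Over the 12 libraries Hand1 ran opposite to Gata3 (r = -0.72) and Cdx2 (r = -0.63), although at 10 h all of these genes were lower in both p38-MAPKi libraries. The genes most like Cdx2 were Wtap (0.938), Stk17b (0.934) and Otud1 (0.931), and those most like Gata3 were Otud1 (0.978), Tmem30a (0.976) and Nabp1 (0.954). Those most like Krt8 were Krt18 (0.946), Fabp5 (0.933) and Capns1 (0.918), and those most like Krt18 were Krt8 (0.946), Naxd (0.943) and Fabp5 (0.925). Otud1 was thus on both lists of the factors and Fabp5 on both lists of the keratins.

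Of 14 other trophoblast regulators, 12 were tested. The most abundant were Klf5 (mean 161 RPKM), which acts upstream in the TE, and Id2 (59.2 RPKM), an inhibitor of helix-loop-helix factors, and Dlx3 and Gcm1, markers of later placenta, stayed under 1 RPKM. Id2 fell by 0.86 on the log2 scale at 4 h (limma adjusted p 0.00485; 0.000926 to 0.295 over the alternatives of processing), a call lost without either control library of that time. In the common effect Id2 fell by 0.84 (adjusted p 0.0117) and Fgfr2, a receptor of FGF4, by 0.56 (adjusted p 0.0360), calls kept in 12 and 5 of 12 fits without 1 library. Over the alternatives of processing the common-effect call of Id2 was kept in 8 of 9 and that of Fgfr2 in 5 of 9. None of the 12 was higher past the threshold, and their median in the common effect was -0.19 beside -0.03 for all genes. Their summed level was lower in both p38-MAPKi libraries than in both controls at each time: 375 and 398 against 353 and 295 RPKM at 4 h, 446 and 397 against 307 and 284 RPKM at 7 h, and 433 and 465 against 411 and 417 RPKM at 10 h. Klf5 and Id2 weigh most in that sum, and the list's median was -0.03, -0.51 and 0.12 at 4, 7 and 10 h, beside 0.07, -0.14 and -0.02 for all genes.

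Partners of the keratins in the cell were read in the same way. Of 13 genes of desmosomes and keratin linkers, 11 were tested, with Perp (112 RPKM), a membrane protein of desmosomes, and Dsp (34.4 RPKM), which ties keratin filaments to them, the most abundant. Perp rose in the common effect by 0.36 (limma adjusted p 0.0358). That call was kept in 3 of 12 fits without 1 library and in 3 of 9 alternatives of processing. The list's median in the common effect was -0.11. At 7 h that median was -0.63 beside -0.14 for all genes, and limma called 0 of the 11 there, with 5 at an unadjusted p under 0.05, beside 2.13% and 28.4% of all genes. The lengths of the genes tested ran from 1952 bases (Perp) to 18113 bases (Plec). The median was not recomputed with the trend in transcript length removed. Of 5 other simple keratins, Krt19 alone was ever at 1 RPKM or more (mean 1.79 RPKM), with a log2 change of 1.29 from 4 to 10 h in control (adjusted p 0.0986), followed by Krt23 (0.133 RPKM), and Krt20 had no read. Krt10, the only stratified keratin tested, had a log2 fold change of 1.42 with p38-MAPKi at 7 h (adjusted p 0.0558).

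Of 16 genes of TE junctions and transport, 15 were tested, with Cldn4 (650.0 RPKM) and Cldn7 (257 RPKM), claudins of the tight junction, the most abundant and Slc9a3 without a read. At 7 h RNA of the endocytic receptor Lrp2 fell by 1.46 (limma adjusted p 0.0369), and RNA of the tight-junction genes Tjp1 and Cgn fell by 1.28 (0.0456) and 1.002 (0.0461). These calls were lost without control replicate 2 at 7 h (adjusted p 0.210 for Lrp2, 0.281 for Tjp1 and 0.311 for Cgn), and that of Cgn also without control replicate 1. In the common effect Lrp2 fell by 0.86 (adjusted p 0.0237) and the sodium pump subunit Atp1b1 by 0.44 (0.0358), calls kept in 7 and 4 of 12 fits without 1 library. Over the alternatives of processing the common-effect call of Lrp2 was kept in 6 of 9 and that of Atp1b1 in 5 of 9. The list's median at 7 h was -0.41 beside -0.14 for all genes. With a trend in transcript length removed, limma called 0 of the 10728 genes tested at 7 h, with 2422 at an unadjusted p under 0.05, while the log2 fold changes at 7 h were -0.84 for Lrp2, -0.89 for Tjp1 and -0.71 for Cgn. The medians of the companion lists were not recomputed in this way. In the common effect with that trend removed, Gata3 (-0.48, adjusted p 0.0144) and Cdx2 (-0.45, adjusted p 0.0146) stayed lower.

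**Figure D5:**
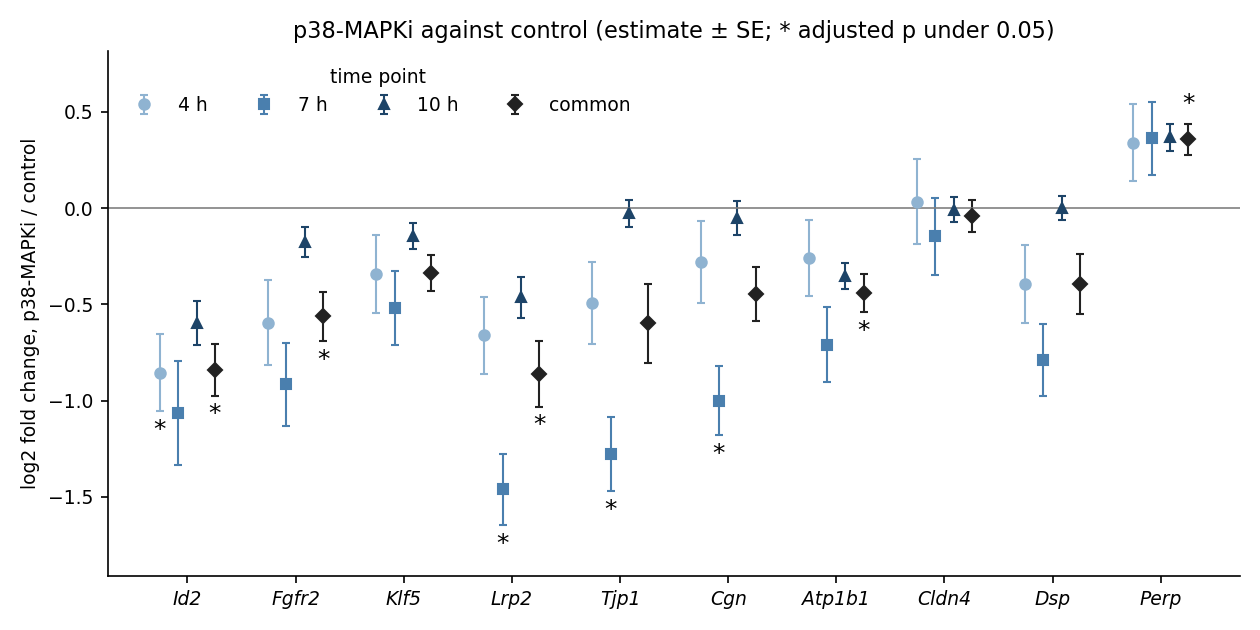
Log2 fold change of p38-MAPKi against control with its SE for genes that share the TE with the members, at 4, 7 and 10 h and for the common effect, with asterisks at a limma adjusted p under 0.05. Id2 and Lrp2 were lower throughout and Perp was higher throughout, while Cldn4 lay near 0.

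Markers of the inner cells were summed in each library, since the share of TE genes depends on them. The 6 epiblast markers summed to 570.3 and 699 RPKM in control and 649.6 and 711 RPKM with p38-MAPKi at 4 h, 636 and 682 against 717 and 669.7 RPKM at 7 h, and 624 and 618 against 556 and 585 RPKM at 10 h, and limma called 0 of the 6 in the common effect, with 1 at an unadjusted p under 0.05, beside 2.67% and 25.0% of all genes. The 7 PrE markers summed to 142 and 171 against 174 and 130.0 RPKM at 4 h, 174 and 189 against 116 and 123 RPKM at 7 h, and 182 and 179 against 185 and 179.5 RPKM at 10 h, with Sox7 and Foxa2 under 1 RPKM. The epiblast sum was thus lower with p38-MAPKi at 10 h and the PrE sum lower at 7 h, where Dab2 (mean 46.5 RPKM) fell by 1.003 (limma adjusted p 0.0461; 0.0833 and 0.255 without control replicate 1 and 2 at 7 h), and at other times the groups overlapped. The sums rest on the most abundant genes. The median log2 fold change at 4, 7 and 10 h was -0.15, -0.19 and -0.15 for the epiblast markers and -0.31, -0.47 and -0.14 for the PrE markers tested, beside 0.07, -0.14 and -0.02 for all genes. The part of the inner cells in the levels of TE genes was not tested.

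With 2 libraries in each group, a difference that missed the threshold does not show that levels were equal. Of genes annotated on top of members, 4930412O13Rik over Gata3 reached 2.93 RPKM and Gm33460 over Eomes 5.31 RPKM, both on the opposite strand, 9230102O04Rik over Gata3 on the same strand reached 0.674 RPKM, and Gm671 over Krt7 and Gm36026 over Krt8 had no level in the table. Their part in the levels of the members was not tested.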

How the data were processed

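The deposited table held log2 RPKM for 34245 genes in 12 libraries, as the authors computed it in SeqMonk from directional, single-end poly(A) libraries, trimmed with Trim Galore 0.4.1 and mapped to GRCm38 with HISAT2 2.0.5 per the submitters' processing notes. The strand option of counting, the merging of isoforms and the treatment of multi-mapping reads were not stated. Reads and depth (11242314 to 24457312 reads) were recovered from the value given to genes without a read (0.9 read) and transcript lengths. The log2 values were fitted with limma 3.58.1 (R 4.3.3, variance trend), and p-values were adjusted by Benjamini-Hochberg over all genes that reached 1 RPKM in 2 or more of the libraries compared. Each time point was tested on its own 4 libraries, as were pairs of control time points, interactions used 8 libraries, and the common effect used 12 with time as a factor. The alternatives tried were quantile normalization, median centring, a fit without the variance trend, removal of a trend in transcript length, no filter, at least 10 RPKM, a pseudocount of 1 RPKM, a replicate block, 12 libraries in one fit, and each library left out. The common effect without 7 h and the interaction of 10 h against 4 h were added after seeing the data. All 10 members were named, and of the companion lists genes among those that passed the test and the 2 most abundant. The members and lists were chosen with earlier results of these data known. Promoters came from RefSeq (GRCm38.p6). Tables were made in Python 3.11.15 with pandas 2.3.3, numpy 2.4.6 and scipy 1.17.1, and plots with matplotlib 3.10.9.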

Additional observations from a re-analysis of the deposited data

Results flagged for a closer look

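For Hand1, the log2 fold change of p38-MAPKi against control at 10 h minus that at 4 h was -2.22 (SE 0.395), with an unadjusted p of 0.000177 and a limma adjusted p of 0.413. What drew attention was this distance between the time points, with both p38-MAPKi libraries above both controls at 4 h and below both at 10 h. The comparison was chosen after seeing the data and did not pass after adjustment, except in 1 of 8 fits with a library left out (adjusted p 0.0358 to 0.8001).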

How the results depend on the processing

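Of 1478 log2 fold changes recomputed under the alternatives, those of the 9 members tested in every comparison and those of companion genes only where they were called, 1227 kept their direction and their side of the threshold, 103 lost a call, 20 gained one, 122 changed sign while smaller than their SE, and 6 others changed sign. These 6 were Hand1 at 7 h without control replicate 1 (-0.0864, in a range of -0.0864 to 1.88 over the libraries left out), the effect at 10 h against 7 h for Krt18 under quantile normalization (0.30) and with the length trend removed (0.0671), and that at 10 h against 4 h for Krt8 (0.0727 and 0.0225 under the same alternatives) and Krt18 (0.0582 under quantile normalization). At 4 h the 1 member called, Hand1, became 0 without the variance trend, under median centring, quantile normalization, the length trend removed and no filter, at least 10 RPKM (where Hand1 was not tested) and 12 libraries in one fit, and 0 to 1 with a library left out. At 7 h the 0 members became 2 with no filter, 1 with at least 10 RPKM and 2 with 12 libraries in one fit. Between 10 and 4 h in control the 0 became 2 with at least 10 RPKM and 0 to 3 with a library left out, and between 10 and 7 h it became 0 to 3. For the effect at 10 h against 4 h it became 0 to 1. In the common effect the 2 members became 1 without the variance trend, 1 under median centring, 0 with no filter, 0 without 7 h and 1 to 2 with a library left out. A fit without 1 library assumes that the lone library varies like the other group. The labels do not say whether libraries with the same replicate number belong together. Correlations of their paired deviations were 0.00654, 0.166 and 0.119 at 4, 7 and 10 h, which does not settle it. A replicate block gave 2 members at 7 h, 3 between 10 and 4 h in control and 1 in the common effect. Over all genes the 98 calls at 4 h became 0 to 115 and 9 to 424 with a library left out, the 233 at 7 h 0 to 2586 and 0 to 2919, and the 88 at 10 h 0 to 410 and 78 to 140. The 51 calls between 10 and 4 h in control became 0 to 536 and 46 to 1228, and the 310 of the common effect 9 to 685 and 64 to 589. The 53 calls between 7 and 4 h in control became 0 to 52 and 10 to 58, and the 6 between 10 and 7 h 0 to 28 and 3 to 221. For the effect at 7 h against 4 h the 1 call became 0 to 2 and 0 to 293, for 10 h against 7 h the 1 became 0 to 610 and 0 to 2905, and for 10 h against 4 h the 0 (limma, 1113 genes at an unadjusted p under 0.05) became 0 to 5 and 0 to 557. The calls higher and lower at 7 h were 102 and 131, and 7 and 5 under quantile normalization. Between 10 and 4 h in control they were 47 and 4, against 25 and 12 under median centring, 30 and 13 under quantile normalization and 28 and 15 with the length trend removed. Fewer genes were tested at 10 RPKM, and the cause of the other changes was not tested. Hand1 and Elf5 had at most 206 and 113 reads in a library.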
